A study of Rattus norvegicus with 12 samples.

Results

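The 8 genes described here encode the pores of the voltage-gated calcium channels of the rat brain. They are Cacna1a (P/Q-type), Cacna1b (N-type), Cacna1e (R-type), the L-type genes Cacna1c and Cacna1d, and the T-type genes Cacna1g, Cacna1h and Cacna1i. They were chosen by gene symbol, with earlier results of these data known, and make up 8 of the 29009 genes in the table. All 8 were expressed above the filter on low counts and so were among the 19094 genes tested.

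A voltage-gated calcium channel is built around a single large alpha1 subunit, which holds the voltage sensor and the calcium pore, and its class name follows from the alpha1 gene. P/Q- and N-type channels sit in nerve terminals, where the calcium they admit triggers transmitter release, and R-type channels contribute to release and to dendritic calcium signals and firing. L-type channels of the soma and dendrites couple activity to gene transcription, whereas T-type channels open near the resting potential and promote burst firing. Beta and alpha2delta subunits bring the pore to the membrane and set its gating.

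RNA was sequenced from the medial prefrontal cortex (mPFC) of adult male Sprague Dawley rats, with 4 rats in each of 3 groups and 1 library per rat. Rats of the CPA groups (chronic prefrontal activation) carried hM3Dq, a designer receptor that raises neuronal firing when its ligand clozapine-N-oxide (CNO) is present. An adeno-associated virus brought it in under the CaMKIIa promoter, which is active mainly in excitatory neurons. CPA+RO rats had 10 days of activation and then 7 daily subcutaneous injections of RO6958375, a peptide agonist of the oxytocin receptor, at 0.07 mg/kg. CPA+veh rats had the same activation and 7 daily injections of vehicle. The control+veh rats had received a virus with a fluorophore and no hM3Dq and had the same vehicle injections. In this experiment CNO was given in the drinking water at a calculated dose of 2 mg/kg, and the methods do not say separately whether control rats drank it. The tissue was dissected from brain slices after electrophysiological recording, days after the last CNO dose, so the libraries describe the state after activation and not the response during it. Doses and days are those of the study's methods, since the labels name only the model and the treatment. The rats were recorded in separate cohorts that the labels do not tie to libraries, and a cohort could therefore not be entered as a term.

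Library totals lay between 67837257 and 79006972 counts in CPA+RO, between 64993543 and 74277096 in CPA+veh and between 68084135 and 77291797 in control+veh. The pore genes were deeply covered, with 3565 counts for Cacna1h in its lowest library and 42319 for Cacna1e in its highest. Of all counts of 1 to 9, 92.7% were even, which points to 2 counts per sequenced fragment. On that reading, counting error was at most 2.37% of a pore gene's value in any library. The vesicular glutamate transporter gene Slc17a7, a marker of cortical excitatory neurons, was high in every library and lay between 597 and 738 RPKM (reads per kilobase of gene model, scaled to the library total). The 4 thalamic markers summed to 6.38 to 8.41 RPKM in CPA+RO, 6.16 to 7.55 RPKM in CPA+veh and 6.84 to 7.67 RPKM in control+veh, most of it from Prkcd (3.2 to 5.2 RPKM). The 3 choroid plexus markers summed to 0.72 to 1.94 RPKM in CPA+RO, 1.3 to 2.02 RPKM in CPA+veh and 0.39 to 0.62 RPKM in control+veh. These sums are low, mostly from Ttr (at most 1.94 RPKM), but every library of the CPA groups was above every control. In CPA+veh against control+veh, 1 of the 2 choroid genes tested had an unadjusted p under 0.05 (log2 fold change 1.76, 0 called, edgeR). That share was 9.94% over all genes tested. The other choroid gene went the other way, with a log2 fold change of -0.68. The part of choroid plexus RNA in the pore gene values was not tested.

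Per kilobase, Cacna1e was the most abundant pore gene in all 12 libraries, with 27.7 ± 4.10 RPKM (SD, n = 12 libraries). Cacna1b (16.9 ± 1.3 RPKM) and Cacna1a (16.6 ± 1.51 RPKM) followed at nearly the same level. Then came the T-type gene Cacna1i with 14.6 ± 1.97 RPKM. The other T-type genes were lower, with 10.35 ± 0.758 RPKM for Cacna1g and 7.19 ± 0.855 RPKM for Cacna1h. The L-type genes were lowest, with 4.07 ± 0.453 RPKM for Cacna1c and 3.535 ± 0.361 RPKM for Cacna1d. The ratio of Cacna1e to Cacna1d in RPKM was 7.82 ± 0.62 (SD, n = 12).

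Neighbours in this order were separated to different degrees. Cacna1e exceeded Cacna1b in 12 of 12 libraries, with a mean ratio of 1.63, and their ranges did not touch. Cacna1b exceeded Cacna1a in 5 of 12 libraries, so the level of N-type and P/Q-type RNA was not ordered beyond the spread between libraries. Cacna1a was above Cacna1i in 10 of 12 libraries. Cacna1i was above Cacna1g, and Cacna1g above Cacna1h, in all 12. Cacna1h was above Cacna1c in all 12 without overlap of their ranges, and Cacna1c was above Cacna1d in all 12 with a mean ratio of only 1.15. The pore genes of skeletal muscle (Cacna1s) and retina (Cacna1f) were at 0.17 and 0.23 RPKM or less in every library. The levels per gene are per kilobase of a gene model whose length was derived from the deposited tables, and isoforms were not resolved.

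**Figure D1:**
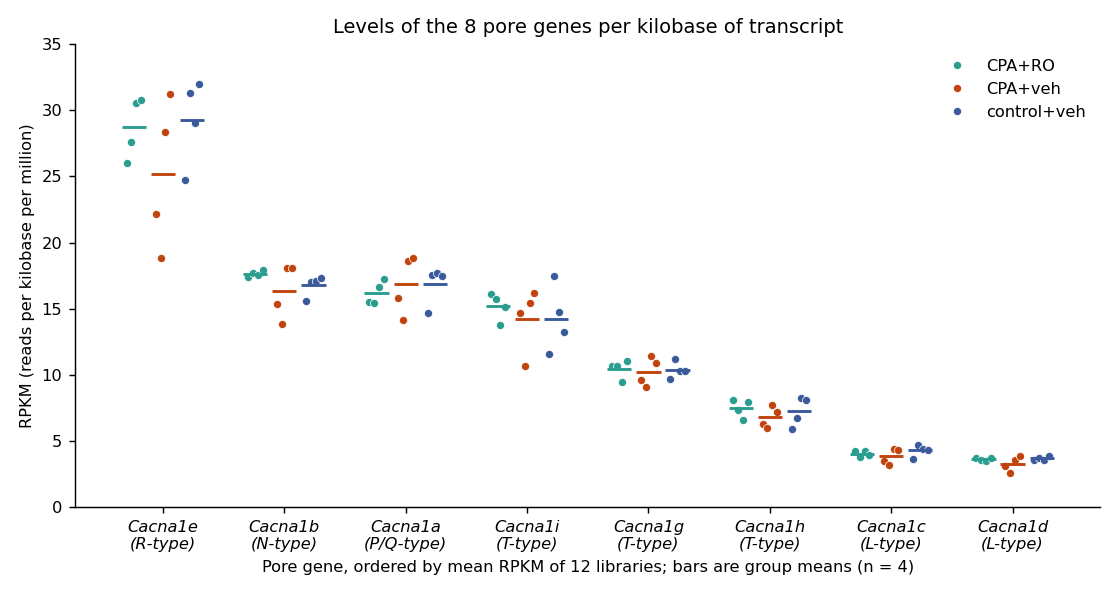
Level of each pore gene in RPKM (vertical axis) in the 12 libraries, coloured by group, with the genes ordered by their mean over all libraries and bars at the group means (n = 4 rats). Cacna1e lies between 18.8 and 32.0 RPKM and clears every other gene, Cacna1b and Cacna1a lie on the same level, and the L-type genes lie below 5 RPKM.

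By class, the 3 T-type genes together made up 31.8% ± 1.58 of the summed RPKM of the 8 genes (SD, n = 12 libraries). The single R-type gene made up 27.3% ± 1.93, the N-type gene 16.8% ± 0.63 and the P/Q-type gene 16.5% ± 0.863. The pair of L-type genes made up 7.53% ± 0.287. The summed RPKM of the 8 genes averaged 103 ± 2.87 for CPA+RO, 96.8 ± 15.1 for CPA+veh and 103 ± 9.10 for control+veh rats (SD, n = 4 each).

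No pore gene passed the test in any of the 3 comparisons between groups. CPA+veh against control+veh asks what chronic activation leaves behind, CPA+RO against CPA+veh what the oxytocin receptor agonist changes after activation, and CPA+RO against control+veh how far treated rats stand from controls. At an adjusted p under 0.05 in edgeR's quasi-likelihood test, 0 of 8 were called in each comparison and 0 of 8 in the joint test of the 3 groups. Of all genes tested, 0.115% were called in CPA+veh against control+veh, 0.0% in CPA+RO against CPA+veh, 0.11% in CPA+RO against control+veh and 0.136% in the joint test. With a background so close to none, a count of 0 of 8 says little about the pore genes by itself, and the intervals given with each value show which differences the data leave possible. At an unadjusted p under 0.05, edgeR, DESeq2 and limma-voom gave 0 of 8 in each comparison, and DESeq2 and limma-voom called 0 of 8 after adjustment. Over all genes tested, edgeR's share at an unadjusted p under 0.05 was 9.94% in CPA+veh against control+veh. It was 4.41% in CPA+RO against CPA+veh and 5.75% in CPA+RO against control+veh. With such shares, 0 of 8 is no unusual count. For CPA+RO against CPA+veh, edgeR, DESeq2 and limma-voom each called 0 of all genes, with 842, 907 and 827 genes at an unadjusted p under 0.05.

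In CPA+veh against control+veh, log2 fold changes of the 8 genes ran from -0.19 (Cacna1e) to 0.03 (Cacna1a), with a median of -0.04 beside 0.01 over all genes tested. For CPA+RO against CPA+veh the range was from -0.05 (Cacna1a) to 0.20 (Cacna1e), with a median of 0.10 beside -0.01. For CPA+RO against control+veh it was from -0.05 (Cacna1c) to 0.12 (Cacna1i), with a median of 0.03 beside 0.00. Over genes in the length range of the pore genes, the medians in the same order were -0.05, 0.07 and 0.02. With the length trend removed, the medians of the 8 pore genes were 0.01, 0.04 and 0.00. The first and second comparisons share the CPA+veh rats, so opposite signs in them are in part one measurement. Across the 24 values, the lowest bound of a 95% interval was -0.48 and the highest 0.48, both for Cacna1e, so the widest intervals end at a fold of 0.718 and of 1.40. These are bulk libraries, in which fewer cells that express a gene and less of its RNA per cell cannot be told apart.

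**Figure D2:**
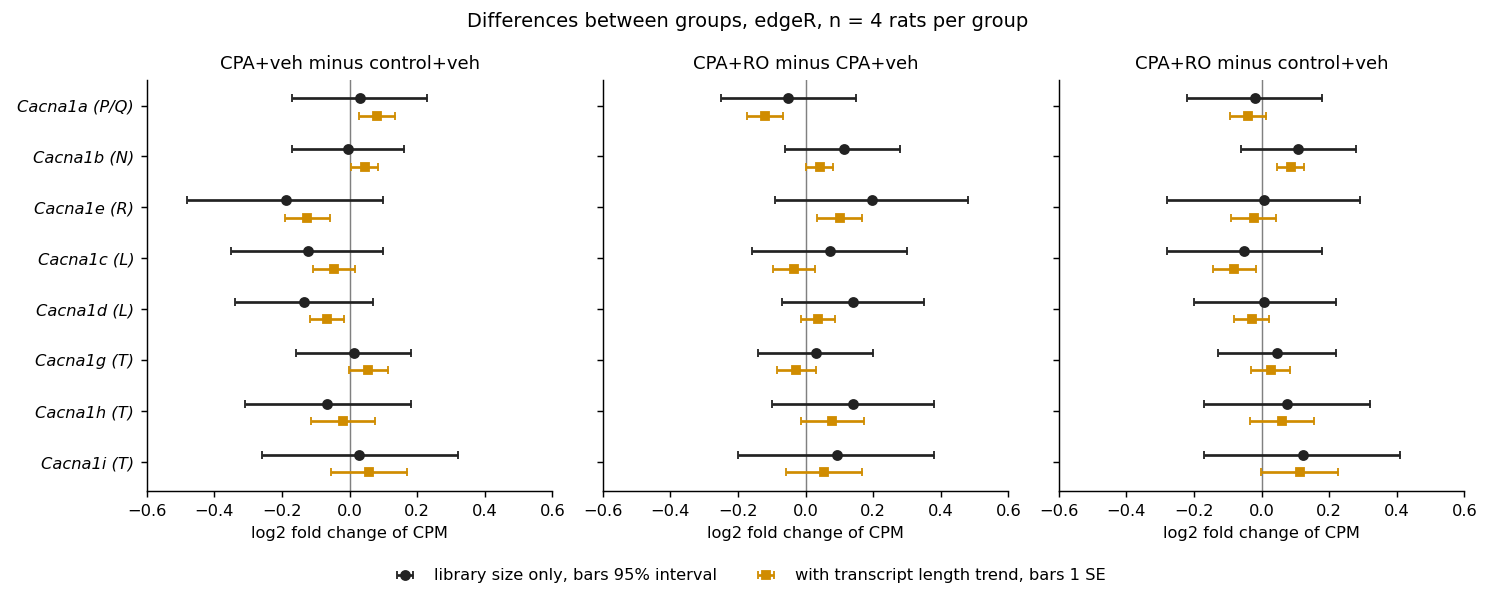
Log2 fold change of CPM (horizontal axis) for the 8 pore genes in the 3 comparisons, n = 4 rats per group. Black points are scaled by library size with 95% intervals, and ochre squares have the transcript length trend of each library removed and bars of 1 SE. Every black interval includes 0, and in the first panel the Cacna1e and Cacna1i intervals are equally wide.

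Cacna1a encodes Cav2.1, the P/Q-type pore and the main calcium source for fast release at central synapses. In CPM (counts scaled to a common library size) it measured 156, 156, 168 and 173 in CPA+RO, 161, 139.8, 189 and 187 in CPA+veh and 142, 174, 174 and 172 in control+veh. The 3 groups overlapped, and the lowest and the highest library were both CPA+veh. Its log2 fold change was 0.03 ± 0.09 (SE) in CPA+veh against control+veh (adjusted p = 0.93, edgeR), -0.05 ± 0.09 in CPA+RO against CPA+veh (adjusted p = 0.925) and -0.02 ± 0.09 in CPA+RO against control+veh (adjusted p = 0.987).

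Cacna1b encodes Cav2.2, the N-type pore, which shares release sites with Cav2.1 and is the target of opioid and other Gi-coupled inhibition of terminals. It measured 178, 182, 179 and 182 CPM in CPA+RO, 159, 139, 187 and 183 CPM in CPA+veh and 154, 172, 171 and 174 CPM in control+veh. Every CPA+RO library was above every control+veh library, and it was the only pore gene whose groups were apart in that comparison. Its mean was 180.5 ± 1.93 CPM in CPA+RO and 167.5 ± 9.08 CPM in control+veh (SD, n = 4 each), a log2 fold change of 0.11 with a 95% interval of -0.06 to 0.28, and the difference did not pass the test (adjusted p = 0.903, edgeR). Groups were apart for 5.57% of all genes tested in that comparison, so 1 of 8 is no unusual count. No pore gene had its groups apart in CPA+veh against control+veh, where 4.62% of all genes did, or in CPA+RO against CPA+veh, where 1.95% did. The log2 fold change of Cacna1b was 0.11 ± 0.08 in CPA+RO against CPA+veh (adjusted p = 0.876), and in CPA+veh against control+veh it was -0.00 ± 0.08 (adjusted p = 0.991).

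Cacna1e encodes Cav2.3, the R-type pore, and had the widest spread in CPM of the Cav2 genes. It measured 457, 487, 538 and 538 CPM in CPA+RO, 394, 325, 502 and 543 CPM in CPA+veh and 419, 543, 499 and 551 CPM in control+veh. Replicates 1 and 2 of CPA+veh were the lowest 2 of the 12 libraries, while replicates 3 and 4 lay among the CPA+RO and control+veh values. Means were 504.9 ± 40.0 CPM for CPA+RO, 441 ± 99.7 CPM for CPA+veh and 503 ± 60.3 CPM for control+veh rats (SD, n = 4 each). The log2 fold change was -0.19 ± 0.13 in CPA+veh against control+veh (adjusted p = 0.647, edgeR) and 0.20 ± 0.13 in CPA+RO against CPA+veh (adjusted p = 0.876), neither past the threshold. Without replicates 1 and 2 of CPA+veh, a setting chosen after seeing the data, these became 0.06 and -0.05. Its value in CPA+RO against control+veh was 0.01 ± 0.13 (adjusted p = 0.997).

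The stretches upstream of the 3 Cav2 genes are given because these genes form 1 family whose levels differ, Cacna1e above the others. RefSeq's table for the GRCr8 build has 5 of the 8 genes (Cacna1a, Cacna1b, Cacna1e, Cacna1c and Cacna1d). Each line gives the 250 bases before the annotated gene start, 5′ to 3′ on the coding strand, with the GC box (GGGCGG or its reverse complement CCGCCC) in capitals. Cacna1a is at chr19:40650469-40650718, Cacna1b at chr3:27944286-27944535 and Cacna1e at chr13:69444811-69445060, all on the minus strand.
Cacna1a: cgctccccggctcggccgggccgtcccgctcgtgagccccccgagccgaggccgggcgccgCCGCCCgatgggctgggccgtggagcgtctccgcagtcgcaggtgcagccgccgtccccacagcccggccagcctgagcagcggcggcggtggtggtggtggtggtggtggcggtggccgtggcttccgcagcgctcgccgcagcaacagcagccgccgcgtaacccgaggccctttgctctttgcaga
Cacna1b: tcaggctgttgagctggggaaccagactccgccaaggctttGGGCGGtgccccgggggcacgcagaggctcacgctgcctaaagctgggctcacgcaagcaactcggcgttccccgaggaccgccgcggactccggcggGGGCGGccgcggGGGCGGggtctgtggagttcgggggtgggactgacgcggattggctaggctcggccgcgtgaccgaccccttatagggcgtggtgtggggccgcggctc
Cacna1e: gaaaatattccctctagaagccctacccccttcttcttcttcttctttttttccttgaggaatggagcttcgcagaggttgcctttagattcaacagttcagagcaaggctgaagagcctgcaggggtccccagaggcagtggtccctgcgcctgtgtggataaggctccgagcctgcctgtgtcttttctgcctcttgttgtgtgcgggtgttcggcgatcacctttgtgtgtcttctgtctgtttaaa
The first and second sequences are rich in G and C, with 76.8% for Cacna1a and 72.0% for Cacna1b, and the Cacna1e sequence has 51.2%, the same as the median of the 33469 promoters in the table. The GC box occurred 1 time in Cacna1a, 3 times in Cacna1b and not in Cacna1e, and it is present in 30.5% of all 250-base stretches of the table. Among the L-type genes it was present 9 times in Cacna1d, whose 250 bases are 88.8% G and C and where neighbouring copies share bases, and was absent from Cacna1c (54.4%). The core of the cAMP response element (TGACG or CGTCA) occurred in Cacna1b and Cacna1c, and in 18.2% of all stretches. The TATA motif TATAAA, on either strand, occurred in none of the 5 and in 12.9% of all stretches. These are matches of letters in a window and were not tested as binding sites. In base composition Cacna1e, the highest of the 5 genes in RPKM, was closest to Cacna1c, one of the lowest.

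Cacna1c and Cacna1d encode Cav1.2 and Cav1.3, the L-type pores, of which Cav1.3 opens at more negative potentials. Cacna1c measured 77.2, 68.4, 76.2 and 70.3 CPM in CPA+RO, 63.5, 57.0, 80.2 and 77.4 CPM in CPA+veh and 63.6, 84.2, 78.0 and 76.8 CPM in control+veh. Cacna1d measured 70.6, 67.7, 65.7 and 70.1 CPM in CPA+RO, 59.5, 48.0, 68.5 and 72.4 CPM in CPA+veh and 65.4, 69.5, 65.9 and 72.1 CPM in control+veh. For each L-type gene the 3 groups overlapped, and replicates 1 and 2 of CPA+veh were the lowest 2 of the 12 libraries.

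In CPA+veh against control+veh, the log2 fold change of Cacna1c was -0.12 ± 0.11 (adjusted p = 0.717, edgeR), and that of Cacna1d was -0.14 ± 0.10 (adjusted p = 0.653). Without replicates 1 and 2 of CPA+veh they were 0.06 and 0.05. The values in CPA+RO against CPA+veh were 0.07 ± 0.11 (adjusted p = 0.91) for Cacna1c and 0.14 ± 0.10 (adjusted p = 0.876) for Cacna1d. Cacna1d averaged 68.5 ± 2.28 CPM in CPA+RO and 68.2 ± 3.17 CPM in control+veh (SD, n = 4 each). The share of Cacna1c in the summed RPKM of the L-type genes stayed between 50.5% and 56.0% over all libraries.

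Cacna1g, Cacna1h and Cacna1i encode Cav3.1, Cav3.2 and Cav3.3, the T-type pores. Cacna1g measured 91.4, 91.7, 81.1 and 94.6 CPM in CPA+RO, 83.4, 76.4, 98.8 and 92.2 CPM in CPA+veh and 80.2, 94.7, 86.4 and 86.6 CPM in control+veh. It was the most even pore gene between rats on the log2 scale (SD 0.114, n = 12), and its groups overlapped. Cacna1h measured 71.9, 65.5, 58.5 and 70.2 CPM in CPA+RO, 56.8, 52.4, 69.1 and 63.0 CPM in CPA+veh and 50.6, 59.4, 72.0 and 70.7 CPM in control+veh. Its lowest library was a control, replicate 1, so the CPA+veh values lay inside the range of the controls. Cacna1i measured 109, 107, 93.1 and 102 CPM in CPA+RO, 101, 70.7, 105 and 108 CPM in CPA+veh and 75.4, 117, 97.7 and 87.7 CPM in control+veh. It had the widest spread among the controls (coefficient of variation 18.4%), and all CPA+RO libraries lay inside that spread.

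None of the T-type genes passed the test. In CPA+veh against control+veh the log2 fold changes were 0.01 ± 0.08 for Cacna1g (adjusted p = 0.974, edgeR), -0.07 ± 0.11 for Cacna1h (adjusted p = 0.867) and 0.03 ± 0.13 for Cacna1i (adjusted p = 0.96). The T-type values in CPA+RO against CPA+veh were 0.03 ± 0.08 for Cacna1g (adjusted p = 0.943), 0.14 ± 0.11 for Cacna1h (adjusted p = 0.876) and 0.09 ± 0.13 for Cacna1i (adjusted p = 0.91). Cacna1i had the largest value of the 8 genes in CPA+RO against control+veh, 0.12 with a 95% interval of -0.17 to 0.41. The makeup of the T-type class was steady, with Cacna1i at 45.2% ± 2.49 and Cacna1h at 22.4% ± 1.81 of its summed RPKM (SD, n = 12 libraries).

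**Figure D3:**
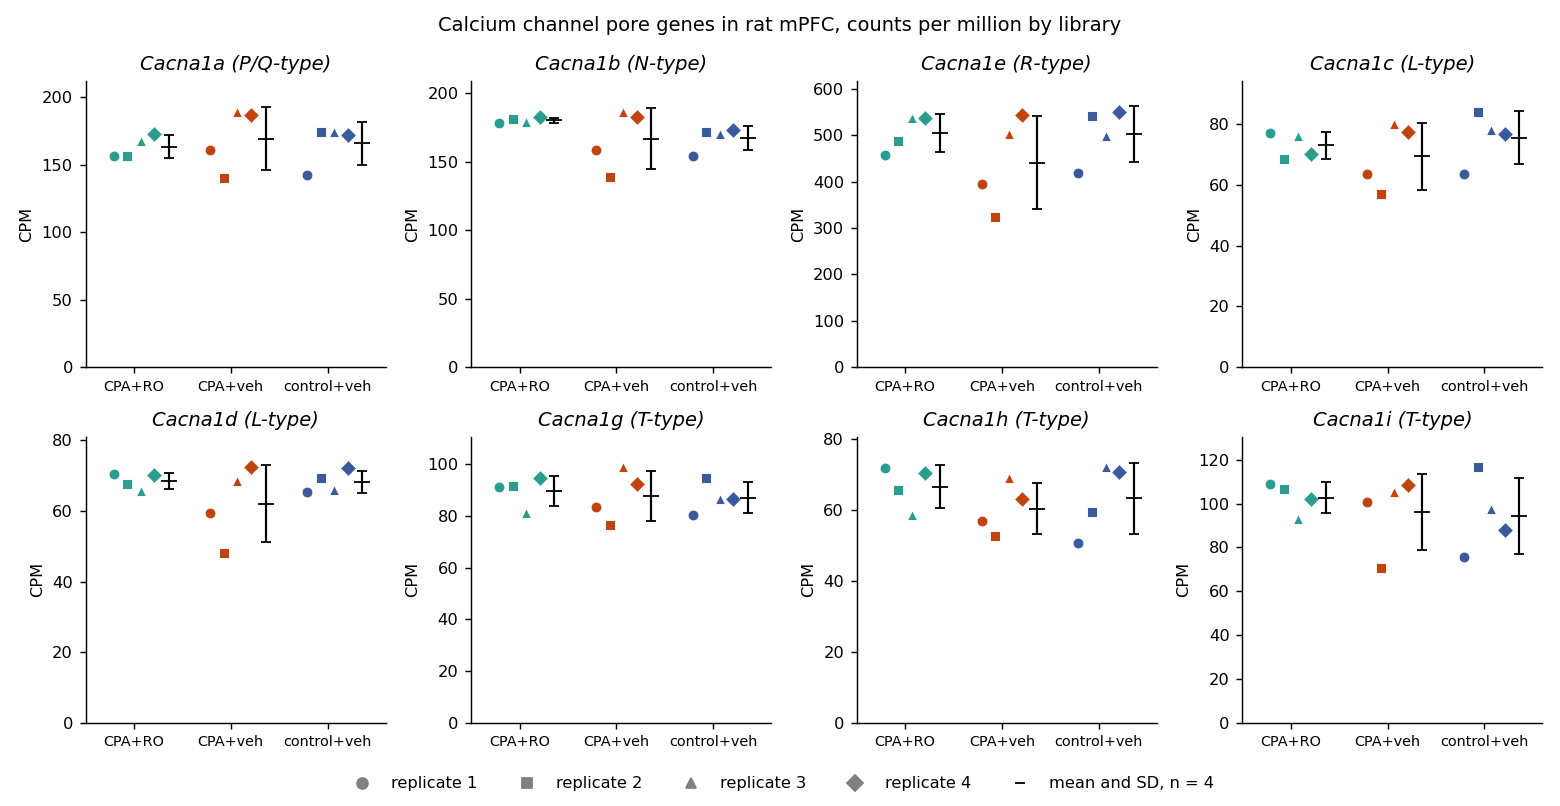
CPM (vertical axis, from 0) of each pore gene in every library, with CPA+RO, CPA+veh and control+veh from left to right, one marker shape per replicate number and the mean and SD of 4 rats beside each group. Replicate 2 of CPA+veh (square) is the lowest library for 7 of the 8 genes, and for Cacna1b the CPA+RO points lie in a narrow band of 178 to 182 CPM.

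The pore genes were low or high together in several libraries. In replicate 2 of CPA+veh all 8 were below their mean over the 12 libraries, by log2 values of -0.20 to -0.56. In replicate 1 of control+veh all 8 were below it as well, from -0.01 to -0.36, and in replicate 1 of CPA+veh 7 of 8 were, with a median of -0.13. In replicates 3 and 4 of CPA+veh all 8 were above their means, with medians of 0.13 and 0.12. The low libraries thus belong to CPA+veh and to control+veh, and each of the 2 groups also holds high ones. Within CPA+RO the medians ran from 0.01 to 0.09, and the coefficient of variation of CPM was between 1.07% and 8.98% for the 8 genes, against 11.2% to 22.6% in CPA+veh. For all 8 genes it was the smaller of these 2 values in CPA+RO, but the genes share their libraries and are not independent. The share of all genes with a smaller coefficient in CPA+RO was not computed, so the count cannot be called particular to the pore genes. The control+veh coefficients were between 4.64% and 18.4%. The 1.07% of Cacna1b in CPA+RO was below its counting error of 1.41% at its lowest count of the 12 libraries. That count, 10121, was in replicate 1 of CPA+veh. In CPA+RO the lowest was 12062, where counting error is smaller than 1.41%. No test of spread was made.

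The same libraries stood apart in how counts depended on transcript length. All 8 pore genes are long, from 6.7 kb (Cacna1i) to 18.7 kb (Cacna1d), against a median of 2.82 kb over the genes tested, of which 11.3% are longer than Cacna1i. Over all genes with a length, Spearman's rho between length and the deviation of a library from the mean was -0.399 in replicate 2 of CPA+veh, -0.202 in replicate 1 of CPA+veh and -0.208 in replicate 1 of control+veh. It lay between 0.00152 and 0.208 in the other 9 libraries. The 2103 other genes in the length range of the pore genes had a median deviation of -0.21 in replicate 2 of CPA+veh, beside a median of -0.32 for the pore genes. The same medians were -0.06 beside -0.13 in replicate 1 of CPA+veh and -0.07 beside -0.19 in replicate 1 of control+veh.

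Removing a smooth length trend from each library narrowed the spread of every pore gene over the 12 libraries. The SD on the log2 scale fell to 0.11 for Cacna1e after the correction, against 0.235 before it. The same values were 0.0545 after and 0.125 before for Cacna1b, and 0.0649 after and 0.163 before for Cacna1d. The T-type genes Cacna1h (0.144 after, 0.18 before) and Cacna1i (0.182 after, 0.22 before) changed least in proportion, and over genes of like length the median was 0.129 after and 0.154 before. After the correction, Cacna1e had a log2 fold change of -0.13 ± 0.07 in CPA+veh against control+veh (unadjusted p = 0.079, adjusted p = 0.493, edgeR) and Cacna1b one of 0.09 ± 0.04 in CPA+RO against control+veh (unadjusted p = 0.0511, adjusted p = 0.719). Cacna1a had one of -0.12 ± 0.05 in CPA+RO against CPA+veh, the only pore gene with an unadjusted p under 0.05 (0.0428, adjusted p = 0.93). None of the 8 was called after the correction in any comparison.

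**Figure D4:**
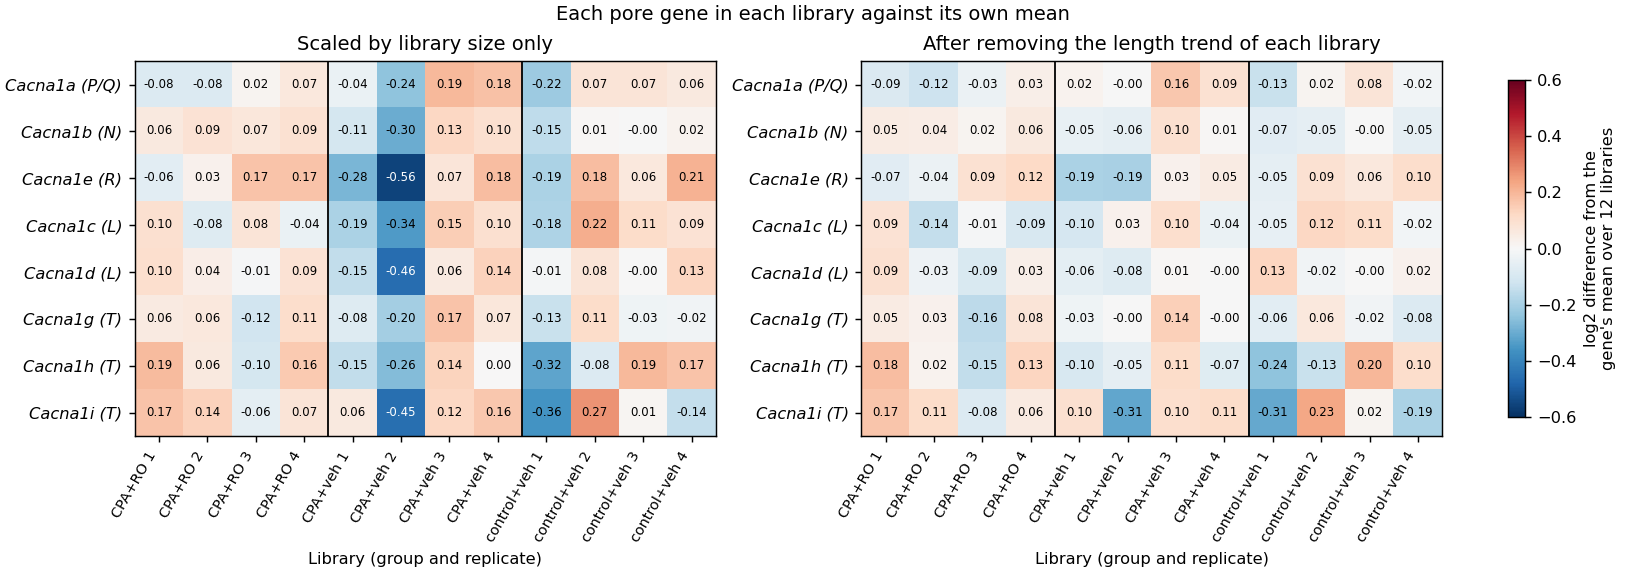
Log2 difference of each pore gene from its own mean over the 12 libraries (colour and number), by library, before (left) and after (right) removing the length trend of each library. The blue columns of CPA+veh 1, CPA+veh 2 and control+veh 1 on the left fade on the right but do not vanish. After the correction 6, 7 and 7 of the 8 genes in these libraries are still below their mean, with medians of -0.05, -0.05 and -0.06. Cacna1i keeps -0.31 in CPA+veh 2 and control+veh 1, Cacna1e -0.19 in CPA+veh 1 and 2, and Cacna1h -0.24 in control+veh 1.

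Markers of other cell types stood apart in replicates 1 and 2 of CPA+veh, and not in replicate 1 of control+veh. Of 6 oligodendrocyte genes, 0 were called and 5 had an unadjusted p under 0.05 in CPA+veh against control+veh (edgeR), all higher. Over all genes tested in that comparison, 0.115% were called and 9.94% had an unadjusted p under 0.05. Their summed level was 725 to 812 RPKM in CPA+RO, 765 to 1350 RPKM in CPA+veh and 727 to 810 RPKM in control+veh, and none of them was at 0. Their median log2 difference from the control mean was 0.61 and 0.35 in replicates 1 and 2 of CPA+veh, and 0.07 and 0.03 in replicates 3 and 4, beside -0.10 in replicate 1 of control+veh. The 5 endothelial genes had medians of -0.66 and -0.80 in replicates 1 and 2 of CPA+veh and of -0.15 in replicate 1 of control+veh, against -0.26 to 0.02 in CPA+RO and -0.15 to 0.13 over the controls. Of these 5 genes, 0 were called and 3 had an unadjusted p under 0.05 in CPA+veh against control+veh, all lower. Their summed level was 32.3 to 42.4 RPKM in CPA+RO, 24.7 to 38.4 RPKM in CPA+veh and 37.1 to 44.7 RPKM in control+veh, with none at 0. The 5 microglial genes had medians of 0.28 and 0.43 in replicates 1 and 2 of CPA+veh, against -0.09 to 0.09 in the controls, and summed to 69.2 to 80.3 RPKM in CPA+RO, 70.9 to 102 RPKM in CPA+veh and 70.8 to 89.2 RPKM in control+veh. In CPA+veh against control+veh, 1 microglial gene was higher at an unadjusted p under 0.05 (edgeR), 0 were called, and 1 had a negative log2 fold change (-0.23). The 5 astrocyte genes had a median of 0.41 in replicate 1 of CPA+veh and of 0.05 in replicate 2, against -0.12 to 0.06 in the controls, and summed to 475 to 543 RPKM in CPA+RO, 484 to 637 RPKM in CPA+veh and 465 to 533 RPKM in control+veh. No astrocyte gene had an unadjusted p under 0.05 in CPA+veh against control+veh (edgeR). The median over 4 pan-neuronal genes lay between -0.07 and 0.15 in every library, while single genes varied more, such as Rbfox3 between 24.5 and 32.3 RPKM. Medians of 6 interneuron genes were 0.09 to 0.13 in CPA+RO, 0.08 to 0.20 in CPA+veh and -0.04 to 0.03 in control+veh. Those of 4 excitatory neuron genes were 0.07 to 0.19, -0.05 to 0.14 and -0.05 to 0.14 in the same order. In CPA+veh against control+veh, 2 of the 6 and 2 of the 4 had an unadjusted p under 0.05 (edgeR), all higher, with 0 called. The part of cell makeup and of transcript length in the low pore gene values was not tested beyond these values.

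The balance between P/Q-type and N-type RNA can be read within a library, since Cacna1a and Cacna1b have gene models of 10.0 and 10.1 kb and so carry the same length trend. This ratio was picked after its values had been seen and is given with no test. The share of Cacna1a in the summed RPKM of the 2 genes was 47.1%, 46.6%, 48.7% and 49.1% in CPA+RO, 50.7%, 50.5%, 50.7% and 51.0% in CPA+veh and 48.4%, 50.8%, 50.9% and 50.2% in control+veh. Every CPA+RO library was below every CPA+veh library, while the controls overlapped both groups. Of single genes tested, 1.95% had their groups apart in CPA+RO against CPA+veh. No such share was taken over ratios of other genes, so how unusual the separation is cannot be read from it. Replicates 1 and 2 of CPA+veh, which were low in both genes, did not stand apart in the ratio. The share of Cacna1a among all 8 genes was 15.3%, 15.2%, 16.3% and 16.0% in CPA+RO, 17.4%, 18.1%, 17.3% and 17.0% in CPA+veh and 16.4%, 16.0%, 16.8% and 16.4% in control+veh, so the CPA+veh libraries lay above the others. The 8 genes differ in length, so this share also carries the length trend. In replicate 2 of CPA+veh, which had the highest share, that trend was -0.239 for Cacna1a and -0.363 for Cacna1e (log2). The part of length in this share was not tested. Cacna1e took 44.1% to 47.2% of the summed RPKM of the Cav2 genes in CPA+RO, 40.2% to 45.9% in CPA+veh and 45.0% to 47.9% in control+veh. At 17.4 kb Cacna1e is longer than Cacna1a and Cacna1b, so its share carries the length trend too. Its lowest values, 40.2% and 41.6%, were in replicates 2 and 1 of CPA+veh.

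**Figure D5:**
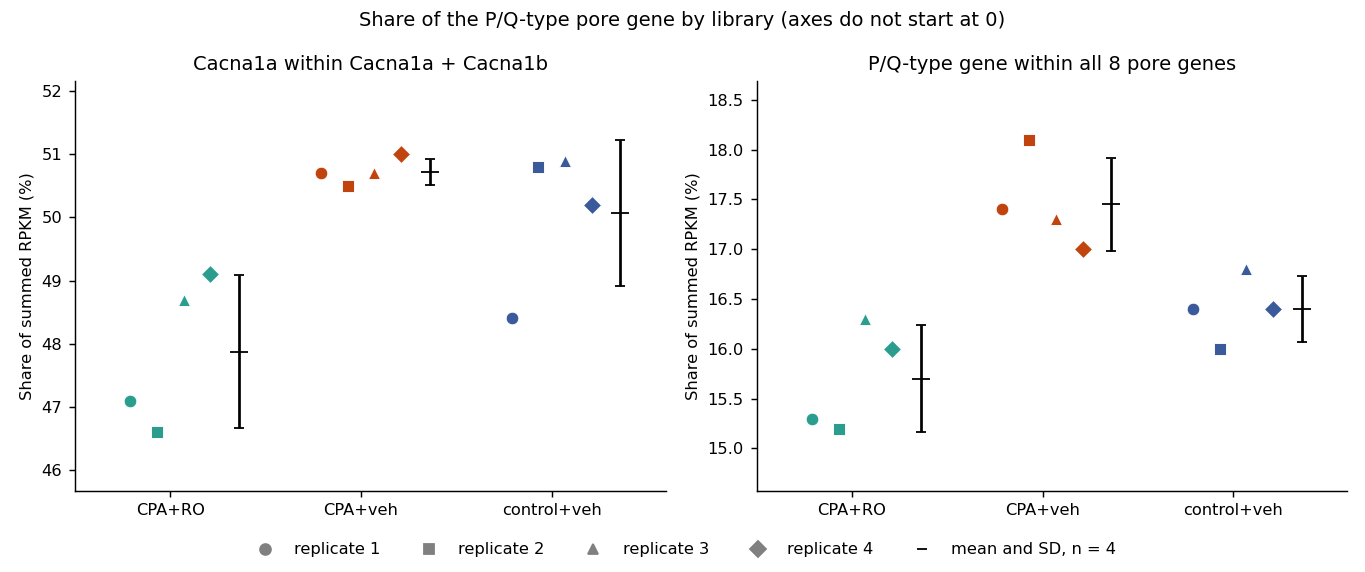
Share of Cacna1a in the summed RPKM of Cacna1a and Cacna1b (left) and of all 8 pore genes (right), in percent on axes that do not start at 0, by library with the mean and SD of 4 rats. On the left the CPA+RO libraries (46.6% to 49.1%) lie below the CPA+veh libraries (50.5% to 51.0%), and on the right the CPA+veh libraries lie above 16.8%. The share on the right also carries the length trend of each library, since the 8 genes differ in length.

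The auxiliary subunits and partners of the channels were read from lists made by gene name, with 28 genes of which 27 were tested. None was called by edgeR in any comparison. In CPA+veh against control+veh, 6 of the 27 had an unadjusted p under 0.05, all higher in CPA+veh, beside 9.94% of all genes tested. They were the beta subunit gene Cacnb3, the gamma subunit and AMPA receptor regulator gene Cacng7, and the partner genes Cbarp, Cabp1, Calm3 and Stac2. With the length trend removed, Calm3 was no longer among them (log2 fold change 0.07, unadjusted p = 0.181), and Rims2, which encodes an active zone scaffold, joined them with 0.24 ± 0.07 (unadjusted p = 0.00295, adjusted p = 0.239, edgeR), against 0.18 ± 0.10 without the correction. Rims2 is outside the rule for named genes and was chosen after its values were seen.

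Of the 4 beta subunit genes, which assist the pore to the membrane, Cacnb3 was the most abundant at a median of 73.7 RPKM. It measured 277, 269, 244 and 256 CPM in CPA+RO, 311, 283, 275 and 233 CPM in CPA+veh and 233, 245, 220.3 and 228 CPM in control+veh. The CPA+veh and control+veh values overlapped in 1 CPA+veh library, and the log2 fold change was 0.25 ± 0.08 (adjusted p = 0.321, edgeR). The log2 fold change in the same comparison was 0.07 for Cacnb1, -0.11 for Cacnb2 and -0.15 for Cacnb4, with a median of -0.02 for the 4 genes.

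The alpha2delta genes, whose first and second members bind gabapentin, gave a median of 0.02, with -0.07 for Cacna2d1, -0.02 for Cacna2d2 and 0.05 for Cacna2d3. Cacna2d4 was at 0.507 CPM or less in every library, and its value of 0.95 ± 0.46 (adjusted p = 0.511) rests on few counts. Of the 8 gamma genes, most of which regulate AMPA receptors in brain, 7 were tested, with a median of 0.09. Cacng7 measured 106, 101, 96.1 and 102 CPM in CPA+RO, 135, 117, 106 and 99.9 CPM in CPA+veh and 96.1, 98.9, 97.7 and 92.4 CPM in control+veh. Every CPA+veh library was above every control+veh library, and the log2 fold change was 0.25 ± 0.08 (adjusted p = 0.328, edgeR). Groups were apart for 4.62% of all genes tested in that comparison. Cacng3 had 0.10 ± 0.05, Cacng4 0.12 ± 0.08 and Cacng8 -0.04 ± 0.06. The pore genes of muscle and retina, Cacna1s and Cacna1f, had -0.20 ± 0.21 and -0.19 ± 0.35 at their low levels.

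Among 11 partner genes the median log2 fold change in CPA+veh against control+veh was 0.17, beside 0.01 over all genes. Cbarp, which encodes a beta-anchoring protein that restrains calcium currents, measured 322, 270.0, 252 and 297 CPM in CPA+RO, 297, 311, 335 and 263 CPM in CPA+veh and 248, 261, 256 and 224 CPM in control+veh. All CPA+veh libraries were above all control+veh libraries, with a log2 fold change of 0.29 ± 0.09 (adjusted p = 0.31, edgeR). Over all genes tested, groups were apart for 4.62%. Cabp1, a calmodulin-like calcium sensor of Cav channels, measured 66.4, 66.0, 53.0 and 62.2 CPM in CPA+RO, 80.5, 73.9, 72.8 and 59.1 CPM in CPA+veh and 55.0, 62.4, 54.5 and 59.1 CPM in control+veh. Its log2 fold change was 0.31 ± 0.09 (adjusted p = 0.313), with 1 CPA+veh library inside the control range. In CPA+RO against CPA+veh it was -0.21 ± 0.09 (unadjusted p = 0.0409, adjusted p = 0.876, edgeR), and that of Cacng7 was -0.17 ± 0.08 (unadjusted p = 0.0419, adjusted p = 0.876). Over all genes tested, 4.41% had an unadjusted p under 0.05 there. With the length trend removed, the unadjusted p was 0.0849 for Cabp1 and 0.065 for Cacng7 (edgeR). Cacng8, higher in CPA+RO, then had 0.024 (adjusted p = 0.93). The adaptor gene Stac2 had 0.31 ± 0.13 (adjusted p = 0.457) and the calmodulin gene Calm3 had 0.17 ± 0.06 (adjusted p = 0.391) in CPA+veh against control+veh. For Stac2 and Calm3, too, all CPA+veh libraries were above all control+veh libraries. Leaving out replicates 1 and 2 of CPA+veh gave 0.10 for Cacng7, 0.13 for Cacnb3, 0.06 for Calm3, 0.19 for Cabp1 and 0.20 for Stac2, each less than the value from all 4 rats by over 1.5 times, and 0.28 for Cbarp.

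The genes whose pattern over the 12 libraries was most like that of a pore gene were mostly not channel genes. Likeness is Pearson's r of log2 CPM over 12 libraries, given as a description. For Cacna1e they were Plxna4 (r = 0.98), Usp9x (0.977) and Prpf8 (0.976), for Cacna1b Unc79, Pcnx1 and Hdlbp (0.971 to 0.972), and for Cacna1d Med13, Tsc22d2 and Itsn2 (0.965 to 0.971). For Cacna1a they were Fam135b, Ank3 and Nbas (0.897 to 0.922), and for Cacna1c Hnrnpul2, Rbm27 and Ccser2 (0.929 to 0.938). Among the T-type genes, Cacna1g was closest to Atp2b2, Meltf and Akap5 (0.921 to 0.929), Cacna1h to Wars, Srrm4 and Stau1 (0.89 to 0.91) and Cacna1i to Kcnh5, Rasgrf2 and Arhgap32 (0.941 to 0.953). Unc79 encodes a subunit of the sodium leak channel complex, Atp2b2 a plasma membrane calcium pump and Kcnh5 an EAG-type potassium channel. Leaving out the 2 libraries farthest from each pore gene's median, replicate 2 of CPA+veh and 1 other, lowered all 24 values, to between 0.717 and 0.952. After the length correction r was 0.917 for Plxna4 with Cacna1e, 0.925 for Kcnh5 and 0.934 for Rasgrf2 with Cacna1i, and 0.323 for Rbm27 with Cacna1c.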

How the data were processed

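Per the labels, mRNA libraries (TruSeq Stranded mRNA) were sequenced on a HiSeq4000. Deposited were raw counts for 29009 genes in 12 libraries, with no scaling, and RPKM that the authors derived from these counts. The submitters' processing notes list the tools bcl2fastq, FastQC, STAR and SAMtools and the builds rn6 and Rnor_6.0, and the counting rule is not given in the sources used here. Dividing counts by RPKM gave gene model lengths for 96.3% of the tested genes.

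Counts were scaled by TMM, filtered by filterByExpr and tested with edgeR 4.0.16 in R 4.3.3 (quasi-likelihood, all 12 libraries, group as the only term), with Benjamini-Hochberg adjustment over 19094 genes and a threshold of 0.05. An interval of 95% is the log2 fold change plus and minus its SE times the t quantile. Log2 CPM used a prior count of 2. The length trend was a smooth fit per library (span 0.3). DESeq2 1.42.0 and limma 3.58.1 (voom) served as alternatives, with other scaling, filtering and left-out libraries. The study's own test was a variance analysis across the groups with post hoc tests.

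The text names all 8 pore genes, up to 4 genes of smallest p per auxiliary list in CPA+veh against control+veh, and the 3 genes of most similar pattern per pore gene (symbols that begin with LOC, RGD, AABR, AC0, Mir or Snor left out). The shares of single pore genes and the setting without CPA+veh replicates 1 and 2 were chosen after seeing the data. Members and lists were chosen with earlier results of these data known. The study's methods, and not the labels, give the doses and days and describe the libraries of a group as separate rats.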

Additional observations from a re-analysis of the deposited data

Results flagged for a closer look

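Of 24 sets of 4 CPM values (8 pore genes in 3 groups), 2 held a library far from the other 3 of its group by Dixon's test, and chance alone flags about 1 set in 20. Cacna1a measured 142.3 CPM in control+veh replicate 1, below the other controls, and Cacna1b measured 154 CPM in the same library. Both values come from 1 rat and are not independent. In that library the other genes in the length range of the pore genes had a median log2 deviation of -0.07, beside -0.19 for the pore genes. Without that library the log2 fold change in CPA+veh against control+veh was -0.04 for Cacna1a and -0.05 for Cacna1b, and neither was called.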

How the results depend on the processing

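The number of pore genes called was 0 of 8 in every comparison under every alternative run, with a smallest adjusted p of 0.261 in CPA+veh against control+veh, 0.459 in CPA+RO against CPA+veh and 0.529 in CPA+RO against control+veh. Over all genes, DESeq2 called 115 in CPA+veh against control+veh, 82 in CPA+RO against control+veh and 120 in the joint test of 3 groups, against 22, 21 and 26 with edgeR. No filter on low counts gave 48 in CPA+RO against control+veh and 53 in the joint test. Fitting only the groups compared gave 1 in CPA+RO against CPA+veh and 32 in CPA+RO against control+veh. Without CPA+veh replicates 1 and 2 the count in CPA+veh against control+veh was 14. Leaving out each library in turn gave 17 to 32 in the joint test, with 17 without control+veh replicate 3. The cause of these shifts was not tested. Of 504 alternative values of the pore genes, 53 had the opposite sign, none of them called.

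With the length trend removed, opposite signs were 0.045 for Cacna1b in CPA+veh against control+veh, -0.024 for Cacna1e and -0.030 for Cacna1d in CPA+RO against control+veh, and -0.035 for Cacna1c and -0.028 for Cacna1g in CPA+RO against CPA+veh, and Cacna2d2 gave 0.002 in CPA+veh against control+veh. With the replicate block and the length trend together they were 0.044, -0.026, -0.030, -0.033, -0.028 and 0.001 in the same order.

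Without CPA+veh replicates 1 and 2, opposite signs in CPA+veh against control+veh were 0.142 for Cacna1b, 0.056 for Cacna1e, 0.059 for Cacna1c, 0.047 for Cacna1d, 0.065 for Cacna1h, 0.038 for Cacnb4 and 0.072 for Cacna2d1 and for Cacna2d2. In CPA+RO against CPA+veh they were -0.034 for Cacna1b, -0.049 for Cacna1e, -0.109 for Cacna1c, -0.040 for Cacna1d, -0.091 for Cacna1g and -0.057 for Cacna1i.

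Leaving out 1 library at a time crossed 0 for these values. In CPA+veh against control+veh the range was -0.040 to 0.112 for Cacna1a, -0.062 to 0.072 for Cacna1b, -0.050 to 0.072 for Cacna1g, -0.163 to 0.001 for Cacna1h, -0.069 to 0.150 for Cacna1i, -0.148 to 0.002 for Cacna2d1, -0.006 to 0.089 for Cacna2d3 and -0.062 to 0.047 for Cacna2d2. In CPA+RO against CPA+veh it was -0.133 to 0.005 for Cacna1a, -0.012 to 0.147 for Cacna1c, -0.028 to 0.094 for Cacna1g and -0.029 to 0.157 for Cacna1i. In CPA+RO against control+veh it was -0.089 to 0.005 for Cacna1a, -0.074 to 0.052 for Cacna1e, -0.127 to 0.003 for Cacna1c, -0.015 to 0.033 for Cacna1d and -0.019 to 0.145 for Cacna1h.

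Same-numbered libraries of different groups did not deviate together (correlations of -0.106 to 0.0977). These correlations cannot show whether same-numbered rats shared a cohort or a recording day, since the labels give neither. A replicate block called 17 genes in CPA+veh against control+veh, 0 in CPA+RO against CPA+veh, 21 in CPA+RO against control+veh and 21 in the joint test, with 0 of 8 pore genes in each, and without the length correction it changed the sign of no pore gene value. Counting error was at most 2.37% of a pore gene's value in any library.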
